A study of Mus musculus with 12 samples.

Results

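A set of 8 mature miRNAs from a mouse X-linked miRNA cluster best known from testis was followed through spermatids and embryonic stem cells (ESC). They are mmu-miR-881-3p, mmu-miR-880-3p, mmu-miR-741-3p, mmu-miR-742-3p, mmu-miR-463-5p, mmu-miR-471-5p, mmu-miR-883a-3p and mmu-miR-883b-3p, and they were taken by name as the cluster miRNAs outside the miR-465, miR-470, miR-743, miR-871 and miR-878 families. They make up 8 of the 1549 rows of a table of raw small-RNA counts, and each of the 8 had a row. The other cluster families make up 15 further rows.

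Small RNA came from 12 libraries of wild-type mouse cells in 5 groups. Spermatids, labelled RS (3 libraries), were sorted after Hoechst staining from the testes of 129Sv males. The androgenetic haploid ESC lines A129-2, A129-6 and A129-17, with 2, 3 and 2 libraries in that order, carry a single chromosome set of paternal origin, were kept with LIF and the 2i kinase inhibitors PD0325901 and CHIR99021, and were periodically enriched for haploid cells by sorting. R1 (2 libraries) is an established diploid mouse ESC line, and nothing used here states its culture medium. All 5 groups were collected by cell sorting. Each haploid line is a single line, and R1 was the only diploid line, so a p-value against R1 measures the spread between libraries and not between diploid lines. The labels speak of independently sorted replicates but do not tie them to separate cultures or animals, so the spread may be technical.

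A miRNA is cut from a hairpin precursor that yields a 5p and a 3p arm. The arm that is loaded into an Argonaute protein pairs with target messenger RNAs mainly through its seed, bases 2 to 8. Most of the X chromosome is silenced in male meiosis, and miRNAs of this cluster are known as a class that is nonetheless made in male germ cells of the mouse. miR-471-5p is also known from mouse Sertoli cells, the somatic cells that nurse the germ cells.

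The mature sequences (RefSeq, GRCm38.p6) are shown because 2 of the 8 differ by so little that reads could be shared between them. They run 5′ to 3′ with the seed in capitals.
mmu-miR-881-3p: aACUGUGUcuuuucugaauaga
mmu-miR-880-3p: uACUCCAUccucucugaguaga
mmu-miR-741-3p: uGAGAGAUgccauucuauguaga
mmu-miR-742-3p: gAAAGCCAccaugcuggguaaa
mmu-miR-463-5p: uACCUAAUuuguuguccaucau
mmu-miR-471-5p: uACGUAGUauagugcuuuucac
mmu-miR-883a-3p: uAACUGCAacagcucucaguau
mmu-miR-883b-3p: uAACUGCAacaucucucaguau

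miR-883a-3p and miR-883b-3p share the seed AACUGCA and differ by a single substitution, G12U, counted from 1 at the 5′ end with the base of miR-883a-3p first. Nothing used here states how the authors assigned reads that match both, so the counts of this pair are uncertain. The other 6 had a seed that no other mature mouse miRNA of the RefSeq table shared, and each was at least 4 differences away from its nearest other mature miRNA. The 8 span GC contents of 31.8% (miR-881-3p and miR-463-5p) to 50.0% (miR-742-3p).

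All 8 precursors lie on the minus strand of chromosome X in GRCm38.p6, within 21649 bases (chrX:66780373-66802021). In the direction of the strand Mir881 comes first (chrX:66801944-66802021), then Mir880 (chrX:66800530-66800607), Mir463 (chrX:66799223-66799297), Mir741 (chrX:66796805-66796875), Mir471 (chrX:66792595-66792661), Mir883b (chrX:66789890-66789967), Mir883a (chrX:66780758-66780833) and Mir742 (chrX:66780373-66780437). Mir878 lies between Mir881 and Mir880. The Mir871, Mir470 and Mir465 precursors lie on the far side of Mir881, and the 2 Mir743 precursors beyond Mir742.

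Library totals ranged from 155232 to 243714 counts in RS, from 3709786 to 9102467 in the haploid lines, and were 7632174 and 9176080 in R1. Values of single libraries below are counts per 1000000 counts (CPM) or percent of the library's counts, and the spread is the SD over libraries. Exact Clopper-Pearson intervals (95%) cover counting error only, since the reads carried no molecular identifiers. The labelled cell types were visible in their marker miRNAs. The 6 male germ cell markers of the miR-34 and miR-449 families summed to 8.75%, 25.1% and 30.5% of counts in RS replicates 1, 2 and 3, against 0.00565% to 0.0326% over the 9 ESC libraries. The 12 markers of pluripotent cells, the miR-290 cluster, summed to 0.00944%, 0.600% and 0.0354% in RS, against 44.0% to 65.3% in the ESC libraries. Mesenchymal and blood markers were highest in RS replicate 1 and lowest in RS replicate 2. The 8 mesenchymal markers summed to 6.64%, 1.41% and 3.75% over RS replicates 1, 2 and 3, and the 9 markers of blood and endothelium to 1.49%, 0.156% and 0.797%. Over the 9 ESC libraries the mesenchymal markers summed to 0.587% to 2.68%, a range that holds RS replicate 2. Those of blood and endothelium summed to 0.00676% to 0.0536% there. The Sertoli cell miRNA pair miR-202-5p and miR-202-3p summed to 107, 141.7 and 90.0 CPM in RS, against at most 0.412 CPM in the ESC libraries.

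In spermatids the 8 miRNAs together took 18.3%, 10.7% and 5.99% of all counts in replicates 1, 2 and 3, against 0.0265% to 0.178% in the haploid lines and 0.0819% and 0.0793% in R1. Nearly all of the RS sum came from mmu-miR-881-3p. It was the most abundant feature of RS replicate 1 (17.2% of counts, 95% interval 17.1 to 17.4), the second of replicate 2 (8.99%, 8.85 to 9.13) and the third of replicate 3 (4.92%, 4.81 to 5.02). The intervals do not overlap, so these libraries differed by more than counting error. Leaving miR-881-3p out of both sums, the other 7 took 1.30%, 1.90% and 1.13% of the remaining counts, so that replicate 1 was no longer the highest. The order of miR-881-3p over the RS libraries ran opposite to that of the germ cell markers, and replicate 1 was highest in the mesenchymal and blood markers, but replicate 2, second in miR-881-3p, was the lowest in both. Across 271 features with a sequence, Spearman's rho of GC content and the deviation from the RS mean was -0.22, -0.05 and 0.36 in replicates 1, 2 and 3. Whether other cells or GC content had a part in the spread of miR-881-3p was not tested.

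**Figure D1:**
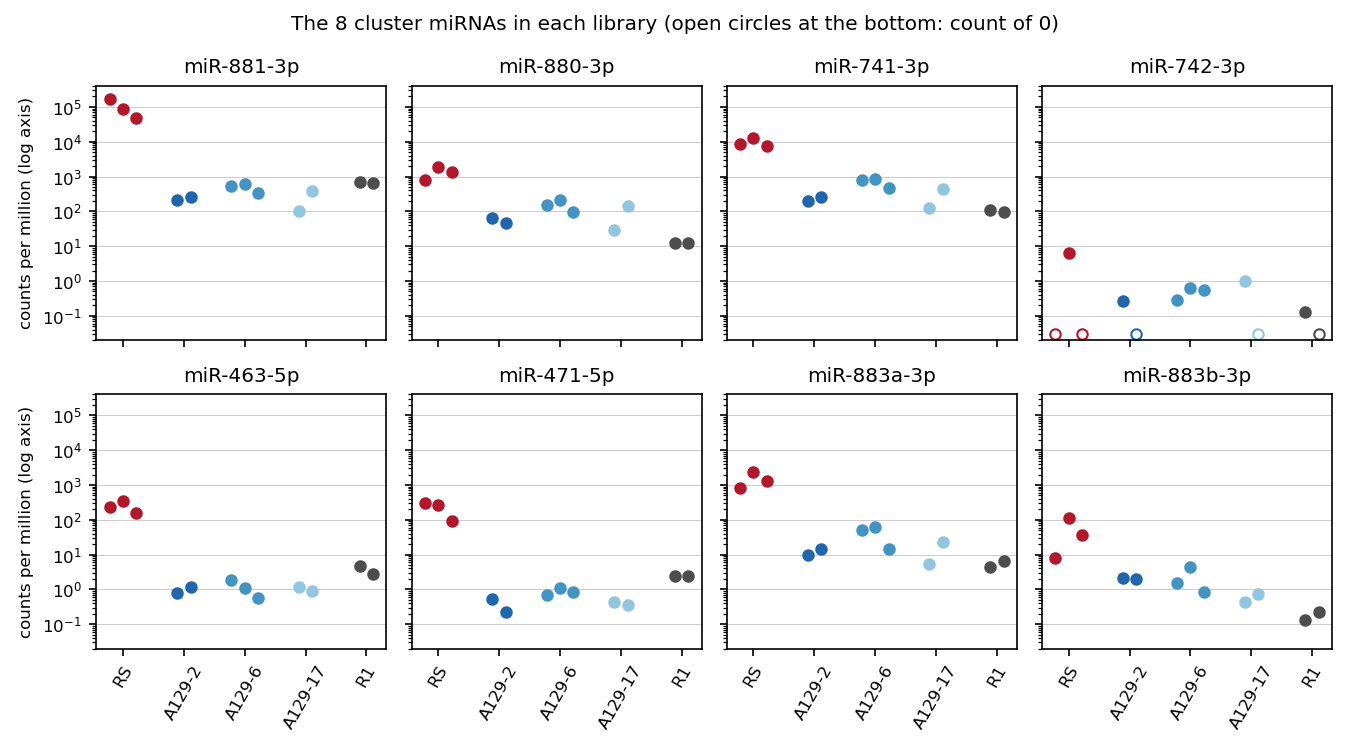
CPM (log axis) of each of the 8 miRNAs in every library, by group, with filled circles for libraries and open circles at the bottom for a count of 0. For every miRNA but miR-742-3p the 3 RS libraries lie above all 9 ESC libraries.

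The second miRNA of the set, mmu-miR-741-3p, had 8588, 12433 and 7775 CPM in RS replicates 1, 2 and 3. In the haploid lines it had 196 and 265 CPM (A129-2), 772, 868 and 469.6 CPM (A129-6) and 125 and 445 CPM (A129-17), and in R1 109 and 94.3 CPM. All RS libraries were far above all ESC libraries, and the R1 libraries lay below every haploid library.

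mmu-miR-880-3p had 812, 1849 and 1349.8 CPM in RS. It had 62.8 and 45.0 CPM in A129-2, 149.7, 216 and 95.8 CPM in A129-6, 28.6 and 143.9 CPM in A129-17, and 12.1 and 12.0 CPM in R1. All RS libraries lay above, and both R1 libraries below, every haploid library.

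mmu-miR-883a-3p had 817, 2299.8 and 1326 CPM in RS, against 9.43 and 14.1 CPM in A129-2, 49.8, 62.0 and 14.1 CPM in A129-6, 5.23 and 22.7 CPM in A129-17, and 4.32 and 6.65 CPM in R1. Its near-copy mmu-miR-883b-3p had 2, 17 and 6 counts in RS (8.21, 109.5 and 35.99 CPM), against 0.435 to 4.45 CPM in the haploid lines and 0.131 and 0.218 CPM in R1, the last from 1 and 2 counts. The 95% interval of its level in RS replicate 1 (0.994 to 29.6 CPM) lies below that of replicate 2 (63.8 to 175 CPM). Both had their highest RS level in replicate 2, and for miR-883a-3p the R1 libraries overlapped A129-17.

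The remaining arms were rare in every ESC library. mmu-miR-463-5p had 226, 354 and 156 CPM in RS, against 0.549 to 1.80 CPM in the haploid lines and 4.59 and 2.72 CPM in R1. mmu-miR-471-5p had 295.4, 264 and 90.0 CPM in RS, against 0.220 to 1.11 CPM in the haploid lines and 2.49 and 2.40 CPM in R1. For both the R1 libraries lay between RS and all 7 haploid libraries. mmu-miR-742-3p was hardly detected, with 0, 1 and 0 counts in RS, 0 to 7 counts in the haploid libraries and 1 and 0 counts in R1. It did not pass the filter on low counts and was not tested. Taking 3 counts as the limit that a count of 0 allows, RS replicates 1 and 3 could have held up to 12.3 and 18.0 CPM, and a level above that of the ESC libraries but within these limits was not detectable at this depth.

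Spermatids were profiled beside the ESC lines for comparison, per the series' design. Against the mean of the 3 haploid lines, with edgeR's quasi-likelihood test on the whole table and Benjamini-Hochberg adjustment over 806 features, 7 of the 7 miRNAs tested were higher in RS and 0 lower, where 20.8% of all features tested were higher and 44.5% lower. The difference was log2 7.01 (SE 0.45, adjusted p = 1.03e-11) for miR-471-5p and 6.76 (SE 0.49, adjusted p = 4.79e-11) for miR-881-3p. It was 6.00 (SE 0.40, adjusted p = 1.43e-11) for miR-463-5p, 4.49 (SE 0.39, 7.6e-10) for miR-883a-3p, 3.31 (SE 0.68, 0.000171) for miR-883b-3p, 2.98 (SE 0.33, 3.33e-08) for miR-741-3p and 2.15 (SE 0.33, 4.85e-06) for miR-880-3p. The median of the 7 was 4.49, against -2.79 over all features tested. These differences rest on TMM-scaled library sizes and are smaller than the ratio of the CPM, since the TMM factors were 1.89 to 2.63 in RS and 0.470 to 1.03 in the haploid lines. Scaling by total counts moved the median of all features up by 1.68 and the 7 values with it, and left each call in place.

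Single libraries moved some of these values. Without RS replicate 1 the difference of miR-881-3p was 6.02, and without RS replicate 2 that of miR-883b-3p was 2.12 (adjusted p = 0.0463, over all alternatives 4.53e-08 to 0.0463). Without A129-17 replicate 2 the values of 5 miRNAs were higher by over 1.5 times (7.40 for miR-881-3p, 3.04 for miR-880-3p, 3.72 for miR-741-3p, 5.37 for miR-883a-3p and 3.91 for miR-883b-3p), and without A129-2 replicate 2 those of 4 (3.58 for miR-741-3p, 6.66 for miR-463-5p, 5.20 for miR-883a-3p and 3.92 for miR-883b-3p). All 7 calls held in each of the 21 alternatives run.

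Against R1, again with edgeR's test over 806 features, all 7 were higher in RS, where 19.4% of features were higher and 33.6% lower. The range was narrower than against the haploid lines, with log2 5.28 (SE 0.60, adjusted p = 7.79e-08) for miR-463-5p at the low end and 7.24 (SE 0.73, adjusted p = 1.43e-08) for miR-883a-3p at the high end. In between lay miR-471-5p (5.72, SE 0.64), miR-741-3p (5.79, SE 0.60), miR-880-3p (5.99, SE 0.61), miR-881-3p (6.57, SE 0.82) and miR-883b-3p (6.99, SE 1.18, adjusted p = 2.07e-05). The median of the 7 was 5.99, against -2.04 over all features tested. The 2 comparisons share the RS libraries. Without RS replicate 2 the values lay between 4.02 (miR-463-5p) and 5.92 (miR-883a-3p), while the median of all features shifted by -0.77, and without RS replicate 1 miR-881-3p stood at 5.80. Leaving out R1 replicate 1 moved the median of all features by -0.72 and the 7 values by -0.83 (miR-883a-3p) to -0.22 (miR-463-5p). Leaving out R1 replicate 2 moved the median by -0.68 and the 7 values by -0.99 (miR-463-5p, to 4.29) to -0.06 (miR-883b-3p), and leaving out A129-6 replicate 1 moved the median by -0.67 and the 7 values by -0.80 (miR-881-3p) to -0.38 (miR-883b-3p). Leaving out A129-17 replicate 1, A129-17 replicate 2 or A129-2 replicate 2 took miR-881-3p to 5.95, 5.97 and 5.95, and leaving out RS replicate 3 took miR-880-3p to 5.39. All 7 calls held in each of the 21 alternatives. In bulk RNA, fewer cells that hold a miRNA and less of it per cell cannot be told apart.

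**Figure D2:**
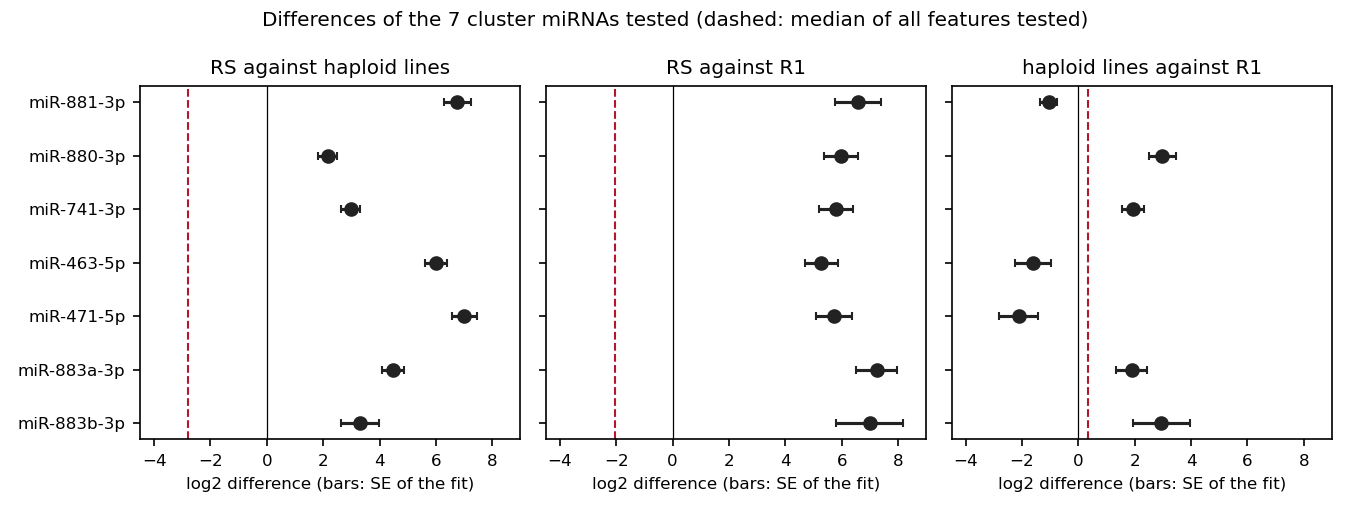
Log2 difference of the 7 miRNAs tested in 3 comparisons, with the SE of the fit as bars and the median of all features tested as a dashed line. All 7 lie right of 0 in both comparisons of RS, and in haploid lines against R1 4 lie right of 0 and 3 left of it.

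The haploid lines and R1, both ESC, differed in the levels of the 7 miRNAs tested, in both directions. With edgeR's test over 757 features of the 9 ESC libraries, the mean of the haploid lines was higher than R1 for 4 of 7, miR-880-3p, miR-741-3p, miR-883a-3p and miR-883b-3p, and lower for 3 of 7, miR-881-3p, miR-463-5p and miR-471-5p. Of all features tested 35.3% were higher and 35.3% lower, so being called in either direction was common. In the fit of the ESC libraries miR-463-5p and miR-471-5p passed the filter on low counts through R1, and miR-883b-3p through the haploid lines. Each of these 3 was thus tested because of the group where it was higher, so their calls are not independent of the filter. The difference was log2 2.98 (SE 0.48, adjusted p = 5.23e-05) for miR-880-3p and 2.95 (SE 1.02, adjusted p = 0.0183) for miR-883b-3p, too close to rank given these SEs, and the others higher were miR-741-3p (1.94, SE 0.39, adjusted p = 0.000398) and miR-883a-3p (1.89, SE 0.55, adjusted p = 0.00661). The calls of miR-880-3p and miR-741-3p held in all 19 alternatives. That of miR-883a-3p was lost without R1 replicate 1 (adjusted p = 0.0551) and with counts summed per line (0.077), and over the alternatives its adjusted p lay between 0.00019 and 0.077. That of miR-883b-3p was lost without R1 replicate 1 (0.176), without R1 replicate 2 (0.134) and with sums per line (0.0917), with adjusted p from 0.000802 to 0.176.

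mmu-miR-881-3p, which leads the 8 in spermatids, had 205 and 252 CPM in A129-2, 544, 626 and 338 CPM in A129-6 and 103.2 and 373 CPM in A129-17, against 687 and 675 CPM in R1. No haploid library reached R1. The fitted difference was -1.06 (SE 0.31, adjusted p = 0.00721), but its sign turned to 1.42 (adjusted p = 0.00147) after a correction for GC content, and it was -0.19 (adjusted p = 0.789) when the RS libraries were included in the fit. It was not called either with upper-quartile scaling (adjusted p = 0.0536), with a stricter filter (0.0528) or with sums per line (0.121), and adjusted p ran from 6.84e-05 to 0.789 over the alternatives. miR-463-5p fell by 1.60 (SE 0.64, adjusted p = 0.0348) but stood at 0.87 (adjusted p = 0.259) after the GC correction, and its call held in 8 of 18 alternatives, with adjusted p from 0.0159 to 0.409. Among the 10 that lost it were leaving out R1 replicate 1 (0.409), R1 replicate 2 (0.107), A129-2 replicate 1 (0.0725) or A129-17 replicate 2 (0.0522). miR-471-5p fell by 2.12 (SE 0.71, adjusted p = 0.0145), and its difference was -0.32 (adjusted p = 0.716) after the GC correction. It was also not called without R1 replicate 1 (0.186), without R1 replicate 2 (0.148) or with sums per line (0.116), with adjusted p from 0.00744 to 0.716.

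Across the table, the haploid minus R1 difference tracked the GC content of the miRNA. Without the 8 miRNAs, the median log2 difference was -3.74 over the 18 features of at most 32% GC, -2.78 over the 19 of 32 to 36%, -3.17 over the 53 of 36 to 40%, -1.55 over the 147 of 40 to 46%, 0.12 over the 179 of 46 to 55% and 1.83 over the 186 above 55%. All 7 cluster miRNAs lay above the median of their GC range. The 3 that were lower in the haploid lines had GC contents of 31.8%, 31.8% and 36.4%, and the 4 that were higher had 36.4% to 45.5%. The part of GC content in these differences was not tested beyond the correction, which used the 609 of 757 features (80.4%) with a RefSeq sequence.

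**Figure D3:**
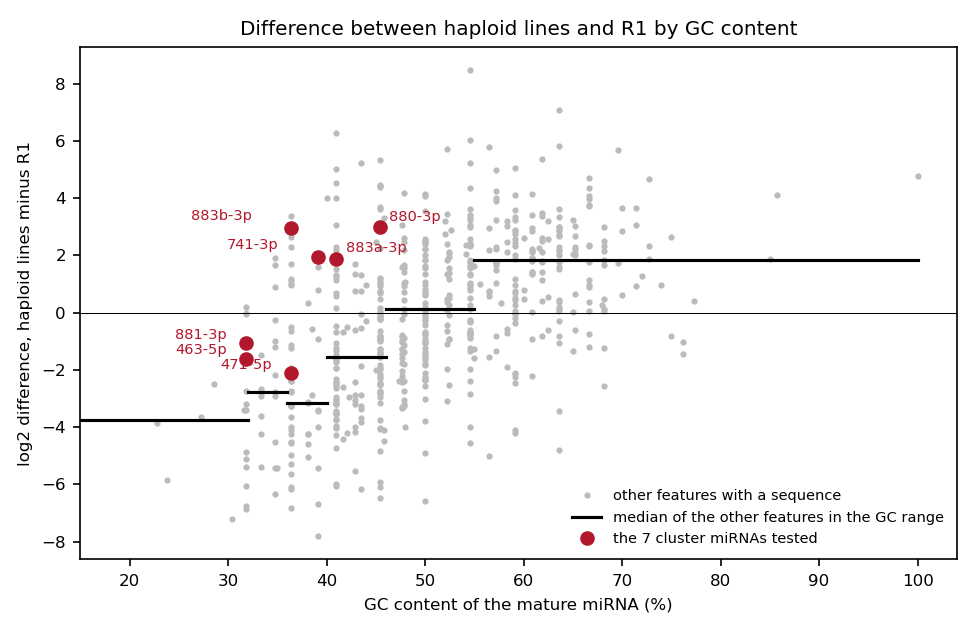
Log2 difference between haploid lines and R1 (y axis) against the GC content of the mature miRNA in percent (x axis) for the 609 features with a sequence, with the 7 cluster miRNAs tested in red and the median of the other features in each GC range as a black line. The 7 lie above the black lines, and the other features run from a median of -3.74 at most 32% GC to 1.83 above 55%.

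The make-up of the set within a library does not depend on how libraries are scaled. miR-881-3p held 94.1%, 83.9% and 82.1% of the summed counts of the 8 in RS replicates 1, 2 and 3, 35.2% to 43.5% in the 7 haploid libraries, and 83.8% and 85.1% in R1. miR-741-3p held 4.69%, 11.6% and 13.0% in RS, 41.1% to 51.0% in the haploid libraries, and 13.3% and 11.9% in R1. Thus the haploid libraries stood apart from both RS and R1, and the R1 shares fell within or near the RS range.

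The same was seen in ratios of counts. There were 20.1, 7.23 and 6.33 counts of miR-881-3p per count of miR-741-3p in RS replicates 1, 2 and 3, 0.704 to 1.05 in the haploid libraries, and 6.31 and 7.16 in R1. Per count of miR-880-3p there were 212, 48.6 and 36.4 of miR-881-3p in RS, 2.60 to 5.59 in the haploid libraries, and 57.0 and 56.3 in R1. The haploid libraries did not overlap RS or R1 in either ratio. In the ratio to miR-741-3p RS replicate 1 stood far above the other RS libraries, which lay close to R1. miR-881-3p has a lower GC content (31.8%) than miR-741-3p (39.1%) and miR-880-3p (45.5%). After the GC correction the differences between haploid lines and R1 were 1.42 for miR-881-3p, 3.39 for miR-741-3p and 3.66 for miR-880-3p. Before it they were -1.06, 1.94 and 2.98, in the same order but over a wider range. The part of GC content in these ratios was not tested further.

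**Figure D4:**
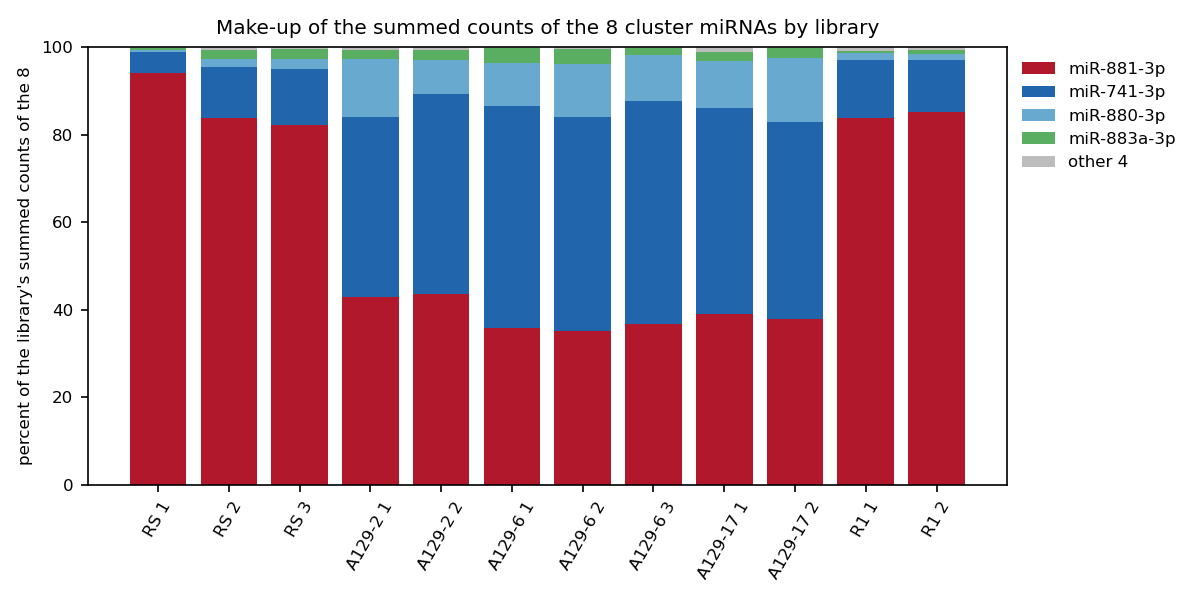
Share of each miRNA in the summed counts of the 8 miRNAs (percent) for each library, as stacked bars. miR-881-3p fills 82.1% to 94.1% of the RS bars, 35.2% to 43.5% of the haploid bars and 83.8% to 85.1% of the R1 bars.

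By mean level the groups fell in different orders for different miRNAs. For miR-881-3p, miR-463-5p and miR-471-5p the order was RS, R1, A129-6, A129-17 and A129-2, where neither RS and R1 nor R1 and A129-6 overlapped, while A129-17 and A129-2 did. A129-6 overlapped A129-17 for miR-881-3p and miR-463-5p but not for miR-471-5p. For miR-880-3p, miR-741-3p and miR-883a-3p it was RS, A129-6, A129-17, A129-2 and R1, where A129-17 and A129-2 overlapped. A129-6 overlapped A129-17 for miR-880-3p and miR-883a-3p but not for miR-741-3p. miR-883b-3p also had RS on top and R1 lowest, with A129-6 and A129-2 overlapping.

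Tested one line at a time, A129-2 was higher than R1 for 3 of 7 and lower for 2 of 7 (31.0% and 28.8% of all features), A129-6 higher for 4 and lower for 0, also by unadjusted p (35.0% and 32.1%), and A129-17 higher for 3 and lower for 1 (34.6% and 31.6%). The 3 comparisons share the R1 libraries. miR-880-3p was called in each line, with log2 2.05 (SE 0.51, adjusted p = 0.0029) in A129-2, 3.76 (SE 0.52, adjusted p = 1.57e-05) in A129-6 and 3.12 (SE 0.53, adjusted p = 0.0001) in A129-17. So was miR-741-3p, with 1.15 (SE 0.43, adjusted p = 0.031), 2.89 (SE 0.44, adjusted p = 3.49e-05) and 1.78 (SE 0.44, adjusted p = 0.00228). miR-881-3p was lower in A129-2 (-1.61, SE 0.42, adjusted p = 0.00416) and A129-17 (-1.22, SE 0.42, adjusted p = 0.0187) and not called in A129-6 (-0.34, SE 0.37, adjusted p = 0.438), but its sign turned after the GC correction in all 3 lines (0.69, 1.57 and 2.00 in A129-2, A129-17 and A129-6). Libraries of A129-17 were far apart: replicate 2 had 373 CPM of miR-881-3p and 445 CPM of miR-741-3p, and replicate 1 had 103.2 and 125 CPM. Without replicate 2 the call of miR-741-3p in A129-17 was lost (log2 0.74, adjusted p = 0.12, over the alternatives 1.22e-05 to 0.12), and without replicate 1 that of miR-881-3p (adjusted p = 0.185, over the alternatives 0.000234 to 0.685). In A129-2 the call of miR-741-3p was lost without A129-2 replicate 2 (adjusted p = 0.419), R1 replicate 1 (0.0605) or R1 replicate 2 (0.144), with a range of 0.000164 to 0.419, and that of miR-881-3p without A129-2 replicate 1 (0.0562), with a range of 4.11e-05 to 0.331. The call of miR-741-3p in A129-2 was also lost with RLE scaling (0.0831), total-count scaling (0.0569) and DESeq2 (0.0797). In A129-6 the call of miR-883b-3p was lost without R1 replicate 1 (0.119) or R1 replicate 2 (0.0915), over the alternatives 0.000674 to 0.119, and in A129-2 without either of them (0.161 and 0.128) or without A129-2 replicate 2 (0.102). That of miR-471-5p in A129-2 was lost without any one library of A129-2 or R1 (0.104 to 0.194), and that of miR-883a-3p in A129-17 without A129-17 replicate 2 (0.647), R1 replicate 1 (0.142) or R1 replicate 2 (0.0532).

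Between the haploid lines, an F-test over the 3 lines (edgeR, 757 features) called 1 of 7, miR-741-3p (adjusted p = 0.0458), where 3.83% of all features were called. A129-6 was higher than A129-2 for miR-741-3p by log2 1.74 (SE 0.41, adjusted p = 0.0384), the only one of the 7 called in that pair, where 2.38% of features were called. That call was lost when any library of A129-2 or A129-6 was left out (adjusted p = 0.379 and 0.094 without A129-2 replicates 1 and 2, and 0.0968, 0.122 and 0.0606 without A129-6 replicates 1, 2 and 3). In A129-17 against A129-2 and in A129-17 against A129-6 edgeR called 0 of the 7 miRNAs and 0.0% and 0.0% of features. In these pairs 1 and 3 of the 7 had an unadjusted p under 0.05, and DESeq2 called 0 of the 7 and 62 and 23 features. Without A129-17 replicate 2, miR-881-3p, miR-880-3p and miR-741-3p were lower in A129-17 than in A129-6 (log2 -1.90, -2.03 and -2.11, each with adjusted p = 0.0268), and without A129-17 replicate 1 miR-880-3p was higher in A129-17 than in A129-2 (1.85, adjusted p = 0.0104). For the other 6 miRNAs the F-test gave adjusted p of 0.0976 (miR-880-3p), 0.112 (miR-883a-3p), 0.113 (miR-881-3p) and 0.481 to 0.96 (miR-883b-3p, miR-471-5p and miR-463-5p). Before adjustment 4 of the 7 had a p under 0.05, and DESeq2 called 3. The call of miR-741-3p held in 10 of 18 alternatives, with adjusted p from 9.59e-05 to 0.144, and was lost without either A129-2 replicate (0.144 and 0.0621) and without A129-6 replicate 1 (0.125) or 2 (0.137). Of 13 tested rows of the other cluster families, 8 were called in the F-test and 10 were higher in A129-6 than in A129-2.

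Over the 9 ESC libraries the levels of miR-741-3p, miR-880-3p and miR-883a-3p moved together, with Pearson's r of log2 CPM between 0.935 and 0.974. miR-881-3p had r of 0.343 to 0.546 with these 3, and miR-463-5p and miR-471-5p had r of -0.537 to -0.257. These values describe 9 libraries that share lines, and low counts limit the last pair. They rest on CPM scaled with the TMM factors of all 12 libraries, not with those of the ESC fit. In the fit of all 12 libraries the median haploid minus R1 difference lay log2 0.85 above that of the ESC fit. The r values under the scaling of the ESC fit were not computed.

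Both arms of 6 of the 8 precursors had a row in the table, and the listed arm was not always the main one. miR-741-3p and miR-883a-3p held at least 97.9% of the counts of their precursor in every group. Pooled over libraries, miR-463-5p and miR-471-5p were the minor arms in RS, the haploid lines and R1. miR-463-5p had 136 of 370 pooled counts (36.8%, 95% interval 31.8 to 41.9) in RS, 51 of 186 (27.4%, 21.1 to 34.4) in the haploid lines and 60 of 298 (20.1%, 15.7 to 25.1) in R1. By library it held 42.3%, 34.6% and 32.1% in RS, 12.9% to 80.0% in the haploid lines, and 25.9% and 15.3% in R1. The haploid range thus spanned both other groups, and the 80.0% came from 8 and 2 counts of the 5p and 3p arms in A129-17 replicate 1. For miR-742 the table held 1 count of the 3p arm and 4 of the 5p arm in RS, against 18 and 0 in the haploid lines.

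The arms of the miR-471 precursor did not go together. miR-471-5p made up 14.2%, 9.98% and 7.98% of the precursor's counts in RS replicates 1, 2 and 3, 3.77% to 21.4% in the haploid libraries, and 31.1% and 48.9% in R1. The highest haploid share came from A129-17 replicate 1, with 3 and 11 counts of the 5p and 3p arms, and pooled over libraries the shares were 11.6% (9.75 to 13.6) in RS, 6.52% (4.34 to 9.35) in haploid ESC and 38.7% (29.4 to 48.6) in R1. In haploid lines against R1, miR-471-3p was not called (log2 0.96, SE 0.55, adjusted p = 0.128), while miR-471-5p was lower (-2.12, a call lost after the GC correction). Both arms have a GC content of 36.4%. Of the miR-463 arms, miR-463-3p was lower in the haploid lines than in R1 (-2.37, SE 0.54, adjusted p = 0.00119), as was miR-463-5p. The call of miR-463-5p held in only 8 of 18 alternatives, and its difference was 0.87 after the GC correction. For miR-463-3p no alternatives are given here.

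For miR-883b the main arm, pooled over libraries, differed between spermatids and haploid ESC. The 3p arm had 25 of 29 counts in RS (86.2%, 95% interval 68.3 to 96.1), 78 of 280 in the haploid lines (27.9%, 22.7 to 33.5) and 3 of 6 in R1 (50.0%, 11.8 to 88.2). By library the share was 66.7%, 89.5% and 85.7% in RS and 8.11% to 51.9% in the haploid lines, without overlap. The RS shares rest on few counts, with 2 and 1, 17 and 2, and 6 and 1 of the 3p and 5p arms in replicates 1, 2 and 3. In A129-6 replicate 2 the 3p arm had 28 counts and the 5p arm 26. miR-883b-5p was higher in the haploid lines than in R1 (log2 4.43, SE 1.01, adjusted p = 0.00119) and not called between RS and the haploid lines (-0.86, SE 0.90, adjusted p = 0.399). In R1 it had 2 and 1 counts. It passed the filter of the ESC fit through the haploid lines, where it was higher, so that call is not independent of the filter. The counts of the 3p arm are subject to the likeness to miR-883a-3p.

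Set beside the rest of the cluster, the 8 miRNAs held a smaller share in each haploid library than in any RS or R1 library. They held 75.5%, 54.6% and 44.2% of all cluster counts in RS replicates 1, 2 and 3, 3.62% to 9.02% in the haploid libraries, and 53.7% and 52.6% in R1. The 15 rows of the other families took 5.96%, 8.92% and 7.55% of library counts in RS, 0.584% to 2.45% in the haploid lines, and 0.0705% and 0.0715% in R1. Between haploid lines and R1, 11 of 13 tested rows of the other families were higher and 0 lower, with a median of 4.00, against 1.89 for the 7 and 0.33 for all features. In RS against the haploid lines 9 of the 13 were higher and 1 lower, with a median of 1.71 against 4.49 for the 7. The 4 most abundant other rows in RS were miR-871-3p (mean 32569 CPM), miR-465a-3p (7993 CPM), miR-465c-5p (6414 CPM) and miR-878-5p (6080.2 CPM), and in the haploid lines against R1 they had log2 differences of 5.22, 5.34, 4.00 and 1.11. The other arm of the miR-878 precursor, miR-878-3p, was higher in the haploid lines than in R1 by 5.22 (SE 0.46, adjusted p = 1.01e-07), against 1.11 for miR-878-5p. Across the table the haploid minus R1 difference tracked GC content. The part of GC content in the differences of the other families, and in that between the miR-878 arms, was not tested.

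**Figure D5:**
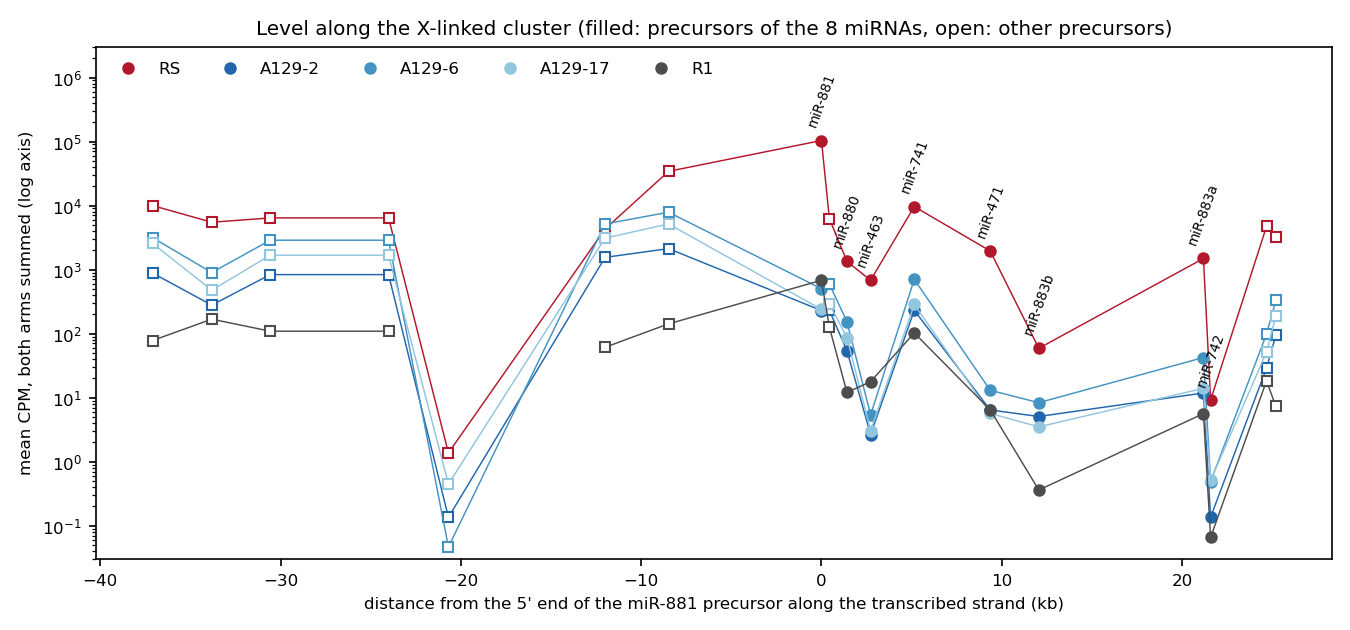
Mean level of each precursor of the cluster with a counted arm, both arms summed (CPM, log axis), against the distance from the 5′ end of the miR-881 precursor along the transcribed strand (kb), with precursors of the 8 miRNAs filled, others open, and miR-465c-5p drawn at both of its precursors. R1 lies above the haploid lines at miR-881 and miR-463, among them at miR-471, and below them at every other precursor drawn.

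Outside the cluster, the features whose log2 CPM over the 12 libraries was most like that of the summed 8 were miR-3471 (Pearson's r = 0.977), miR-7233-3p (0.954), miR-1194 (0.953), miR-202-5p (0.953) and miR-7210-5p (0.952), of 563 candidates. These correlations mainly set RS against ESC. miR-3471 averaged 560.1 CPM in RS, against 0.357 to 0.872 CPM over the 3 haploid lines and 0.240 CPM in R1, and miR-7210-5p averaged 9270.4 CPM in RS and had no count in any ESC library. Over the 9 ESC libraries the nearest were miR-679-5p (r = 0.839), miR-183-3p (0.828), miR-294-3p (0.826), miR-382-5p (0.764) and miR-1983 (0.728), of 493 candidates. The first 5 had means of at most 0.872 CPM in every ESC group, below the minimum mean CPM set for candidates. They could therefore not appear among the nearest over the ESC libraries, and their absence there says nothing about likeness.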

How the data were processed

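The deposited table held raw counts of reads per miRNA, which the authors had not normalised, for 12 libraries and 1549 features. All columns were matched to samples by name. Libraries were made by adapter ligation, PCR and gel size selection (NEBNext kit) and sequenced as single-end reads, per the labels' protocols. Per the submitters' processing notes, tools included Bowtie 0.12.9 and DESeq2. No genome build, miRBase release or rule for multi-mapping reads is given in the sources used here.

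edgeR 4.0.16 (R 4.3.3) was used on these counts. After filterByExpr (at least 10 counts, 15 in total) and TMM scaling, group means were compared with the quasi-likelihood F-test, two-sided, with Benjamini-Hochberg adjustment over all features and a threshold of 0.05. All 12 libraries were fitted for comparisons with RS, and the 9 ESC libraries for comparisons among ESC. The haploid lines weighed equally. Single-library shares have exact Clopper-Pearson 95% intervals. Likeness was taken on log2(TMM-normalised CPM + 1) among features with a mean CPM of at least 10 in a group. The TMM factors for likeness and for the correlations between the miRNAs were those of all 12 libraries, also over the 9 ESC libraries. The scripts were tested on simulated data.

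The miRNAs, marker lists and tests were chosen with earlier results of these data known. All 8 miRNAs, the opposite arms, 4 other cluster miRNAs by RS level and the 5 nearest patterns were named by rule. Alternatives were other scalings (RLE, upper quartile, total count), DESeq2 1.42.0, no filter, a stricter filter (10 CPM in 2 libraries), a replicate block, each replicate left out, all 12 libraries in the ESC fit, sums per line, the 8 left out of the scaling, and a GC correction. For comparisons with RS the GC correction, with sequences for 80.8% of 806 features, was chosen after seeing the data.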

Additional observations from a re-analysis of the deposited data

Results flagged for a closer look

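mmu-miR-741-3p was flagged because its difference from R1 was called as unequal in the 3 haploid lines: the F-test over the lines gave an adjusted p of 0.0458 (edgeR, over 757 features), with log2 differences from R1 of 1.15 in A129-2, 2.89 in A129-6 and 1.78 in A129-17. That call held in 10 of 18 alternatives and was lost without either A129-2 replicate. The same test called 8 of the 13 tested rows of the other cluster families. Both other miRNAs that moved with miR-741-3p over the ESC libraries, miR-880-3p and miR-883a-3p, were not called in that test (adjusted p = 0.0976 and 0.112). Their differences between A129-6 and A129-2 were alike in size, with log2 1.71 and 1.85, against 1.74 for miR-741-3p.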

How the results depend on the processing

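In the comparisons of RS with the haploid lines and with R1, all 7 miRNAs tested were higher under each of the 21 alternatives. Among the ESC libraries the stricter filter left 4 of the 7 to test, without miR-463-5p, miR-471-5p and miR-883b-3p, so part of its lower counts is miRNAs not tested. Between haploid lines and R1, 2 were higher with sums per line, and the count lower was 1 with upper-quartile scaling and with all 12 libraries in the fit, and 0 with the stricter filter, GC correction or sums per line. Leaving out 1 replicate gave 2 to 4 higher and 1 to 3 lower. The GC correction turned the sign of miR-881-3p (1.42 over the lines, 0.69 in A129-2, 2.00 in A129-6, 1.57 in A129-17), of miR-463-5p (0.87, 0.46, 0.74 and 1.41) and of miR-471-5p in A129-6 (0.34), and with all 12 libraries in the fit miR-881-3p turned in A129-6 (0.52), where the median of all features shifts too. The count lower in A129-2 was 1 with the stricter filter, no filter, total-count scaling or all 12 libraries and 0 with GC correction; in A129-6 it was 1 with RLE; in A129-17 it was 2 with RLE and 0 with upper-quartile scaling, the stricter filter, all 12 libraries or GC correction, with 5 higher after the last. Leaving out 1 replicate gave 1 to 3 higher in A129-2 and in A129-17, 0 to 2 lower in A129-2 and 0 to 1 in A129-17. The F-test over lines called 0 of the 7 with RLE, total-count scaling, the stricter filter or all 12 libraries, 3 with DESeq2 or the replicate block and 4 with no filter, and of all features 0, 3 and 2 with total-count scaling, the stricter filter and all 12 libraries, and 85, 82 and 72 with DESeq2, no filter and the replicate block. A129-6 against A129-2 called 0 with total-count scaling, the stricter filter or all 12 libraries, 4 with DESeq2 or no filter and 3 with the replicate block, and A129-17 against A129-6 called 1 with the block. Leaving out 1 replicate gave 0 to 4 calls in the F-test (0 to 80 of all features) and in A129-6 against A129-2, 0 to 1 in A129-17 against A129-2 and 0 to 3 in A129-17 against A129-6.

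Signs also turned, in differences that were not called, for A129-17 against A129-2 of miR-463-5p (-0.0095, total-count scaling) and against A129-6 of miR-463-5p (-0.16, total-count scaling, and -0.022, replicate block). Leaving out 1 replicate gave -0.16 to 0.98 (miR-463-5p) and -0.51 to 0.49 (miR-883b-3p) in A129-6 against A129-2; -0.60 to 1.06 (miR-881-3p), -0.29 to 1.85 (miR-880-3p), -0.35 to 1.29 (miR-741-3p), -0.0356 to 1.14 (miR-463-5p) and -0.66 to 1.30 (miR-883a-3p) in A129-17 against A129-2; and -2.03 to 0.11 (miR-880-3p) and -0.16 to 0.53 (miR-463-5p) in A129-17 against A129-6. The cause of these changes was not tested. Of 21 same-numbered pairs of libraries, 1 deviated together with r above 0.1 (range -0.16 to 0.14). In groups of 2 libraries the deviations from the group mean mirror each other, so some pairs repeat the same value. Whether a number marks a shared batch cannot be told from these pairs. RS depth, at most 243714 counts, limits miR-742-3p, miR-883b-3p and the minor arms.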
